A study of Homo sapiens with 10 samples.

Results

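PC-3 cells are a human prostate carcinoma line that grows without androgen. By their labels they were exposed for 24 h to 60 µM luteolin together with 60 µM gefitinib, or to the solvent DMSO alone. Their mRNA was measured on single-color Agilent whole-genome arrays. The comparison holds 4 of the 10 arrays of the series, the 2 titled PC-3 L+G and the 2 titled PC-3 DMSO, which were chosen by these titles and entered with all 41000 non-control probes. Luteolin is a plant flavonoid and gefitinib inhibits the tyrosine kinase of the EGF receptor, and the study asked which genes respond before the cells die. The other arrays are 2 each of untreated cells at 0 h and of cells labelled as given 60 µM luteolin or 60 µM gefitinib alone for 24 h (the Luteolin and Gefitinib arrays). All groups are the same cell line in the same serum-containing medium, the titles call the arrays of a group biological replicates, and the labels and the methods differ in the culture temperature.

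The scanner file names of both L+G arrays carried 'Lu+', the mark of luteolin, in place of both drugs, while their titles, descriptions and treatment fields named both. The files of the Luteolin arrays carried the mark of gefitinib and those of the Gefitinib arrays the mark of both drugs. The files did not settle which is right, so it is uncertain which drug or drugs the cells of the L+G arrays received, and in the following L+G names only the arrays so labelled. With the file names followed, the pair taken as L+G was the pair labelled Gefitinib. That pair had 3082 raised and 2814 lowered genes against DMSO, of which 1194 were raised and 461 lowered in the comparison by labels too and 130 were called in the opposite direction. Of 143 genes chosen to be named, all called except GAK and EGFR, 89 kept direction and call status with the file names, 30 lost the call and 24 turned in direction.

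Replicate 1 of L+G and of DMSO lay on the same slide and replicate 2 of each lay together on another, so the change could be read within each slide. The L+G arrays were dimmer, with a 75th percentile of 865 and 539.8 signal units against 1349.9 and 1283 for DMSO, and between 65.4% and 69.8% of probes were well above background on these 4 arrays. Over genes, the median SD of the 2 L+G arrays was 0.26 (log2) and that of the 2 DMSO arrays 0.09. All levels are on the log2 scale with the array's 75th percentile set to 0, so that a total loss or gain of mRNA per cell is not measured, and fewer cells of a kind and less RNA per cell cannot be told apart. Of the epithelial markers, KRT8, KRT18, KRT19, EPCAM and CDH1 all had probes well above background on the 4 arrays. No probe of the luminal gene FOLH1 or of the leukocyte genes PTPRC and LYZ was above background on any of the 10 arrays. Of the 8 leukocyte, fibroblast and endothelial markers that could be tested, 2 (LUM and CD14) were raised and 3 (PDGFRA, COL1A1 and KDR) were lowered on the L+G arrays. None of the 3 was called as lowered under normexp background correction (-0.33, -0.51 and -0.17) or belonged to the probes above background on all 10 arrays. Their part in the results was not tested.

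Several programs with known regulators bear on cells under such drugs. Cells that stop dividing withdraw the transcripts of the mitotic apparatus, many of whose promoters share a short element called the cell cycle homology region, while inhibitors of the cyclin-dependent kinases are induced. Unfolded protein in the endoplasmic reticulum activates XBP1 and ATF6, which raise chaperones, and stress kinases increase ATF4, which raises amino acid and arrest genes. NF-κB factors induce chemokines and also their own inhibitors.

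Against DMSO, 2386 of 19718 genes were raised on the L+G arrays (12.1%) and 1517 were lowered (7.69%), at an adjusted p under 0.05 from limma with Benjamini-Hochberg adjustment and a change of at least 2-fold. Changes of 8-fold or more were found for 225 raised genes and 17 lowered genes. Within each of both slides, 1505 of the raised and 934 of the lowered genes changed at least 2-fold. On all 4 arrays 1813 of the raised and 1212 of the lowered genes were well above background, and 459 raised genes were above it on neither DMSO array. The median change of all genes was 0.16 on the log2 scale, against which the medians of gene lists should be read. Of all genes, 45.4% had both L+G arrays above both DMSO arrays and 29.9% had both below, and 61.1% of the called genes were raised. That share was 44.8% under quantile normalization, 55.0% after scaling to the array median and 71.15% under normexp background correction. The number of raised genes was 1549 without L+G replicate 2 and 1522 without DMSO replicate 2.

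The genes that rose most, of those above background on all 4 arrays, included genes of germ cells and secreted proteins. FAM209A, a gene of the testis, lay at 1.39 and 2.57 on the L+G arrays and at -3.08 and -3.33 on the DMSO arrays. Its rise was 36.4-fold (log2 change 5.19, standard error 0.40, adjusted p = 0.000487 from limma). MIA, a secreted protein of cartilage and melanoma, lay at -0.23 and 1.28 with L+G and at -4.73 and -4.47 with DMSO (34.8-fold). GCNA, a nuclear protein of germ cells, ranked next, and HP, the haemoglobin scavenger haptoglobin, rose 25.4-fold. The rise of HP was larger on slide 2 (5.84) than on slide 1 (3.50). The 12 genes of this kind also included CLEC3B, GUCA1B, AOC3, VWCE, MUC20, AMY1C, LSMEM1 and BCO2. For all 12 both L+G arrays lay above both DMSO arrays, as the choice of these genes required.

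Several of the largest falls were in genes of cell division. KIF20A, a kinesin needed for cytokinesis, lay at -2.16 and -3.04 on the L+G arrays and at 1.01 and 0.71 on the DMSO arrays, the largest fall of these (log2 change -3.46, standard error 0.40, adjusted p = 0.00117 from limma). LMNB1, which encodes lamin B1 of the nuclear envelope, fell 8.80-fold, from 0.87 and 0.57 with DMSO to -1.84 and -2.99. The kinetochore motor CENPE (-2.80), the proliferation gene DEPDC1 (-2.79), the kinetochore subunit SPC25 (-2.70) and the DNA topoisomerase TOP2A (-2.67) followed on the log2 scale. Others among the 12 largest falls were OTULINL (-2.79), whose L+G arrays differed by only 0.08, PHACTR3, LOXL4, PFDN6, INAVA and SH3TC2.

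**Figure D1:**
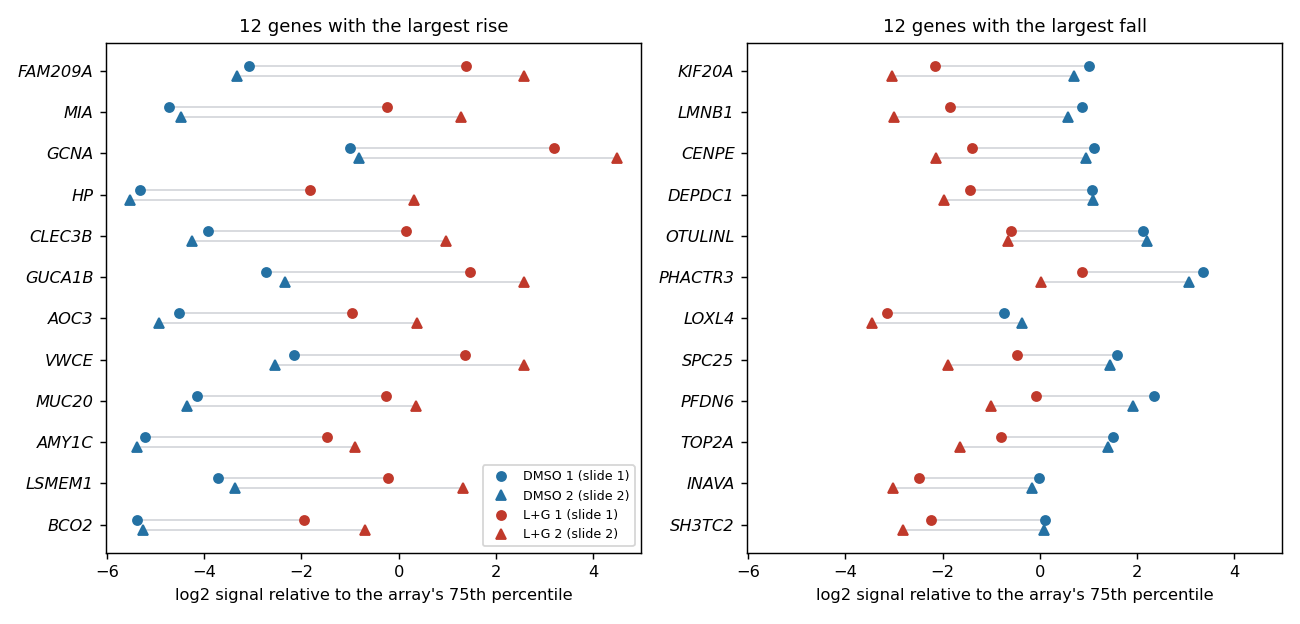
Signal on the log2 scale, with the 75th percentile of each array at 0 (x axis), of the 12 genes with the largest rise (left) and the 12 with the largest fall (right), on each L+G array (red) and each DMSO array (blue); circles are replicate 1 on slide 1, triangles replicate 2 on slide 2, and grey lines join arrays of the same slide. By the choice of genes, both red points of every row lie on the same side of both blue points, as for KIF20A at -2.16 and -3.04 against 1.01 and 0.71.

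Some genes were well above background on both L+G arrays and on neither DMSO array, which gives their rise as a lower limit only. LEFTY1, a secreted antagonist of Nodal signaling, lay at -0.09 and 0.26 on the L+G arrays and at -6.57 and -6.77 on the DMSO arrays, at least 59.1-fold higher (adjusted p = 0.000558 from limma). The receptor for platelet-activating factor, PTAFR, was at least 28.4-fold higher and the SRC-family kinase FGR at least 28.2-fold higher, and SLC6A13, a GABA transporter, at least 24.5-fold higher. The opposite held for FAM107A, an actin-associated protein, which was at least 7.48-fold lower on the L+G arrays, and for NAV3, a microtubule-binding protein, at least 4.83-fold lower. DTWD2 was at least 4.53-fold lower, and the 6 genes with the largest limits in each direction also held C6orf118 and 4 transcripts known by accession alone. Under normexp background correction, whose offset draws low signals together, LEFTY1 gave 3.98 on the log2 scale and FAM107A kept its call, while NAV3 (-0.58) and DTWD2 (-0.49) were not called. In these limits each array without signal was set to the lowest signal well above background on it.

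Of 43 tested genes of mitosis and the G2/M transition, 33 fell and 0 rose, against 7.69% and 12.1% of all genes. On both L+G arrays 41 of them lay below both DMSO arrays, as did 29.9% of all genes. The median change of the list was -1.52 against 0.16 for all genes, with -1.36 on slide 1 and -1.72 on slide 2. PLK1, the polo kinase that starts mitosis, fell from 3.70 and 3.56 with DMSO to 1.08 and 0.93. CCNB1, the mitotic cyclin B1, fell from 3.79 and 3.46 to 1.72 and 1.40. The L+G and DMSO levels of both genes were separated by far more than the spread within a group. CDK1, the kinase partner of cyclin B1, fell by 1.05 (adjusted p = 0.025 from limma), and AURKB, the kinase of the chromosomal passenger complex, by 1.27. FOXM1, a transcription factor of the G2 phase, and BIRC5, or survivin, did not pass the test, with changes of 0.12 and -0.11. Following the file names lowered 23 of these genes.

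The promoters of this list are shown because its members moved together. Promoters here are the 250 bases before the RefSeq start in GRCh38.p14, found for 36 of the 43 genes. The core of the cell cycle homology region, TTTGAA on either strand, was in the window of 20 of these 36 genes and of 16 of the 31 that fell, against 13.6% of all 27305 promoters and 8.7% of those of genes tested here. The 2 lowered genes with a match and the largest fall were SPC25 and TOP2A, with the match in capitals.
SPC25, chr2:168890431-168890680, minus strand: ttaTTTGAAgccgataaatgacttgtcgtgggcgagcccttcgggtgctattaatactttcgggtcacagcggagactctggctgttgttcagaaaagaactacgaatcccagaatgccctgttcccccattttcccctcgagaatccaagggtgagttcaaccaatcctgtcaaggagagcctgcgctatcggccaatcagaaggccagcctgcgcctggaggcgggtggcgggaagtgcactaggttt
TOP2A, chr17:40417897-40418146, minus strand: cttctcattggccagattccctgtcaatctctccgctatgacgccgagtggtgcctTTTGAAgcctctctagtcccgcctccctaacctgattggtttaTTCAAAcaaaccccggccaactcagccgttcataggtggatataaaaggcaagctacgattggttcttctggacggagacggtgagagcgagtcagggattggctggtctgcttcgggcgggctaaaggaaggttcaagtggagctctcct
TOP2A holds the letters at 2 places, of which the nearer ends 146 bases before the start, whereas the match in SPC25 lies 242 bases before it. A match describes the letters only, and binding was not measured.

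DNA replication genes moved less. Of 45 tested, 5 fell and 0 rose, where 7.69% of all genes fell and 12.1% rose, with a median change of -0.26. POLA2, the accessory subunit of DNA polymerase alpha, lay at -0.96 and -2.57 with L+G and at 0.44 and 0.26 with DMSO. POLE2 of polymerase epsilon fell by 1.99, the primase PRIM1 by 1.75 and the ribonucleotide reductase subunit RRM2 by 1.34 on the log2 scale. The helicase subunit MCM3 was the last of the 5 (-1.04), while another subunit, MCM5, was higher by 0.65, less than 2-fold. The count of 5 was 9 without L+G replicate 1, 3 without L+G replicate 2, 9 under quantile normalization and 8 after scaling to the array median. With the file names 5 of the 45 replication genes were lowered and 5 raised, and their median was 0.21. Among 17 genes of recombination and Fanconi repair, 2 fell, RAD51AP1 (-1.81) and FANCA (-1.02), where 7.69% of all genes fell. That count was 4 without L+G replicate 1, 1 without DMSO replicate 1 and 1 under normexp correction, where FANCA was not called, and RAD51AP1 gave 0.058 with the file names.

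Inhibitors of the cyclin-dependent kinases went mostly the other way, with 4 of 7 raised and 0 lowered, against 12.1% and 7.69% of all genes. Of the 7, 1 had both L+G arrays below both DMSO arrays, with a change of -0.93 that was not called. Under quantile normalization 3 were raised and 1 was lowered. CDKN2B, which encodes p15 and blocks CDK4 and CDK6, lay at 1.81 and 2.70 on the L+G arrays and at -0.52 and -0.39 on the DMSO arrays, a 6.55-fold rise (adjusted p = 0.00243 from limma). CDKN1A, which encodes p21, rose 3.16-fold, CDKN1B (p27) 2.26-fold and CDKN2A (p16) 2.14-fold. CDKN2A was not called under normexp background correction (0.99) or quantile normalization (0.74). All 4 had both L+G arrays above both DMSO arrays, and the count of 4 was 2 without L+G replicate 2 or without DMSO replicate 1. Of 17 G1 cyclins, pocket proteins and E2F factors, E2F5 passed the threshold (-1.46). Without L+G replicate 1, 3 genes of this list were lowered, and with the file names 6 were lowered and 1 raised.

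Of 15 tested cytokine and chemokine genes 11 were raised and 1 was lowered, against 12.1% and 7.69% of all genes. They formed the list with the largest median rise of those examined, 1.46 on the log2 scale. This rank was not kept in all settings. Without L+G replicate 1 the median was 1.36, against 1.39 for inhibitors of the cyclin-dependent kinases. With the file names it was 1.39, against 1.99 for immediate early genes. CCL20, a chemokine for dendritic cells and lymphocytes, lay at -1.17 and -2.46 with L+G and was not well above background with DMSO (-7.60 and -7.72), which makes it at least 15.8-fold higher. CXCL8, or interleukin 8, rose 8.11-fold, from -2.26 and -3.01 to 0.79 and -0.01 (log2 change 3.02, standard error 0.39, adjusted p = 0.00163 from limma). Its change was alike on slide 1 (3.04) and slide 2 (3.00). CXCL6 rose 5.90-fold, and TNFAIP3 (A20), an inhibitor that NF-κB itself induces, 7.17-fold. NFKBIA, which holds NF-κB in the cytoplasm, rose 2.75-fold. TNF, counted here with the death receptor ligands, was above background on neither DMSO array and at least 3.25-fold higher on the L+G arrays. Under normexp background correction CCL20 gave 2.73 and TNF 1.43 on the log2 scale, less than these limits, and both kept the call. IL1B was the gene that fell, from 0.25 and -0.03 to -0.99 and -1.92, a call lost without either DMSO array or without L+G replicate 2. The file names left 9 genes of this list raised.

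Promoters were found for 13 of the 15 genes, and 8 of these held the core of the NF-κB site, GGNATTTCC on either strand, in the 250 bases before the start. Of the 10 raised genes with a promoter 7 held it, against 1.22% of all promoters and 1.19% of those of genes tested here. The 2 with the largest rise among them were CXCL8 and TNFAIP3, with the match in capitals.
CXCL8, chr4:73740319-73740568, plus strand: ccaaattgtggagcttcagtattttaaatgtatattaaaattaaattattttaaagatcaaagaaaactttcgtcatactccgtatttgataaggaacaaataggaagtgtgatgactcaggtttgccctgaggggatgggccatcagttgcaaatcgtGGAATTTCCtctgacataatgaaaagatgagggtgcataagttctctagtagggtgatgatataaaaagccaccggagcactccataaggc
TNFAIP3, chr6:137867009-137867258, plus strand: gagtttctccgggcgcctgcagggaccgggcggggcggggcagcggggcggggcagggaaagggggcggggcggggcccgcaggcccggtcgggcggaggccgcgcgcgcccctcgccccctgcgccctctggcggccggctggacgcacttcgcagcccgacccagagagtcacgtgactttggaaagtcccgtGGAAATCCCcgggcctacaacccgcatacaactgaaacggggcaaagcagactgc
The match ends 83 bases before the start in CXCL8 and 47 bases before it in TNFAIP3, where it is on the other strand.

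Of 17 tested effectors of ATF4 and CHOP, 9 rose and 1 fell, against 12.1% and 7.69% of all genes, with a median change of 1.33. ATF3, a stress-induced transcription factor, lay at 2.39 and 2.14 with L+G and at -0.39 and -0.29 with DMSO, 6.08-fold higher (adjusted p = 0.00344 from limma). GDF15, a secreted stress cytokine, rose 5.64-fold, from 4.24 and 4.81 to 6.86 and 7.18. DDIT4, an inhibitor of mTORC1, rose 4.16-fold and CTH, an enzyme of cysteine synthesis, 3.49-fold. ATF4 itself rose by 1.48 on the log2 scale. The CHOP gene DDIT3 (-0.23) and TRIB3 (0.34), a pseudokinase induced by both factors, did not pass the test, and the related factor ATF5 fell by 1.55. The core of the element that ATF4 binds, TGATGNAA on either strand, was in 3 of 16 promoters of the list. It was in 1 of the 9 raised genes, that of ATF3, against 3.19% of all promoters and 1.46% of those of genes tested here. With the file names, 4 of these genes were raised and GDF15 was not (-0.05, adjusted p = 0.913 from limma).

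Chaperones of the endoplasmic reticulum and targets of XBP1 rose in 8 of 23 cases and fell in 0, where 12.1% and 7.69% of all genes did. Their median was 0.74, and in 21 of 23 both L+G arrays lay above both DMSO arrays, against 45.4% of all genes. HSPA5, the chaperone BiP, lay at 2.65 and 2.90 with L+G and at 1.37 and 1.39 with DMSO, 2.63-fold higher (adjusted p = 0.0124 from limma). DNAJB9, a cochaperone of BiP, rose 3.44-fold, the sensor kinase ERN1 (IRE1) 2.68-fold and XBP1 2.36-fold. The adjusted p of HSPA5 was 0.0672 without L+G replicate 2 and 0.0624 without either DMSO array, and over all limma settings by label it ranged from 0.00207 to 0.0672. For DNAJB9 these values were 0.0756, 0.0718 and 0.0556, with a range from 0.00218 to 0.0756. The count of 8 was 3 without L+G replicate 2, 3 without DMSO replicate 2, 5 without DMSO replicate 1, 3 under quantile normalization and 5 with the file names, where DNAJB9 (-0.26) and XBP1 (-0.37) were not raised.
The endoplasmic reticulum stress element is CCAAT and CCACG with 9 bases of any kind between them, on either strand. It was in 6 of 20 promoters of the list and in 4 of the 7 raised genes with a promoter. Of all promoters 0.0806% held it, and of those of genes tested here 0.13%. The raised gene with a match and the largest rise was HSPA5.
HSPA5, chr9:125241344-125241593, minus strand: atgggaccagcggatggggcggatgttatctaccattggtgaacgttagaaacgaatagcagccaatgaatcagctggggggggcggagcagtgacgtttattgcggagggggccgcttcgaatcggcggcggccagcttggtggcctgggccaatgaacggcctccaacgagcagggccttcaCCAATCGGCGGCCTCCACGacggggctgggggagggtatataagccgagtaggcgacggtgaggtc
The capitals mark the element, which ends 48 bases before the start.

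**Figure D2:**
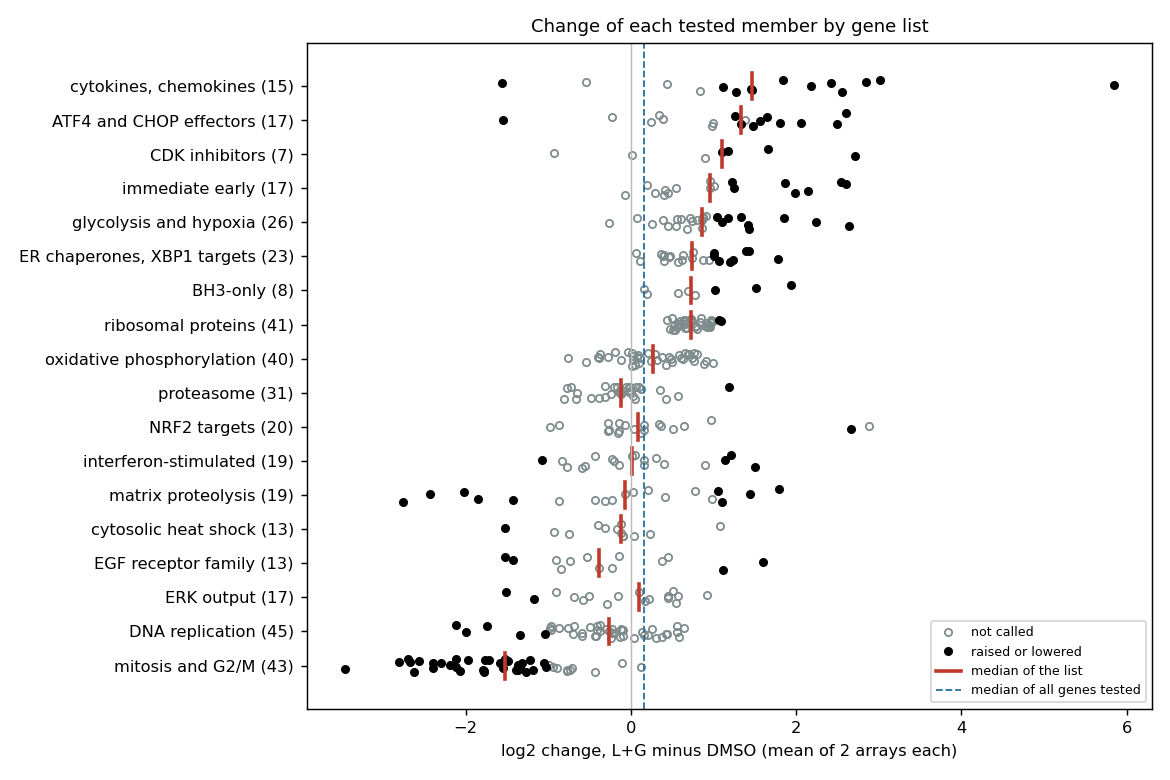
Log2 change, L+G minus DMSO (x axis), of each tested member of 18 gene lists (rows, number tested in parentheses); filled points were raised or lowered, open points were not called, red bars are list medians and the dashed line is the median of all genes, 0.16. The mitosis list lies to the left (median -1.52), and the cytokine, ATF4 and CDK inhibitor lists to the right (1.46, 1.33 and 1.10).

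Immediate early genes rose in 7 of 17 cases and fell in 0 (median 0.96), where 12.1% and 7.69% of all genes did. With the file names 11 rose and 3 fell, where 3082 and 2814 of all 19718 genes did. FOS, a subunit of AP-1, lay at -1.05 and -1.61 with L+G and at -3.29 and -4.45 with DMSO, a rise of 5.83-fold. ARC, a gene of synaptic activity, rose 4.43-fold and KLF6, a zinc finger factor, 3.96-fold. EGR1 gave -0.97 on slide 1 and 1.55 on slide 2 and was not called. The count of 7 raised genes by labels depended on the arrays used. Without DMSO replicate 2 the count was 3, and the adjusted p of FOS was 0.0545 from limma. Over all limma settings by label it ranged from 0.00154 to 0.0545.

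Glycolysis and hypoxia-response genes rose in 9 of 26 cases and fell in 0 (median 0.86), where 12.1% and 7.69% of all genes did. The vasodilator peptide ADM rose 6.26-fold, from -0.06 and 0.28 with DMSO to 2.81 and 2.70 with L+G (adjusted p = 0.000644 from limma). NDRG1, a stress gene of differentiating cells, rose 4.74-fold, the glucose carrier SLC2A1 3.60-fold and the mitophagy receptor BNIP3 2.69-fold, each with both L+G arrays above both DMSO arrays. With the file names SLC2A1 was not raised (-0.34). In lipid metabolism, 3 of 8 genes of sterol export rose, MYLIP (4.37-fold), which degrades the LDL receptor, APOE (3.52-fold) and the exporter ABCA1 (2.55-fold). Of 24 genes of cholesterol synthesis 2 rose, where 12.1% of all genes did. They were the methylsterol oxidase MSMO1 (3.54-fold) and the regulator SREBF2 (2.11-fold). That count was 6 without L+G replicate 1, 1 without L+G replicate 2 or DMSO replicate 1, and 7 with the file names.

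Genes of apoptosis changed in both directions. Of 8 BH3-only genes, which promote mitochondrial death, 3 rose, where 12.1% of all genes did (median 0.73). All 8 had both L+G arrays above both DMSO arrays, as did 45.4% of all genes. PMAIP1 (NOXA) rose 3.82-fold, by 1.94 on slide 1 and 1.93 on slide 2. HRK rose 2.86-fold by its brightest probe, while its 2 probes ranged from 0.66 to 1.52 and 1 was called. BBC3 (PUMA) rose 2.02-fold by its brightest probe, while its 3 probes ranged from -0.06 to 1.01. The inhibitor of apoptosis genes BIRC3 (1.56), BIRC2 (1.12) and XIAP (1.12) rose on the log2 scale, and CASP6 fell by 1.55. They were the called genes among 13 listed with the caspases and the apoptosome, where 12.1% of all genes rose and 7.69% fell. With the file names 3 of the 13 rose and 3 fell. CFLAR, the inhibitor of caspase 8 activation at death receptors, fell 2.81-fold by its brightest probe, from -0.51 and -0.57 to -1.70 and -2.37. The 2 probes of CFLAR ranged from -1.49 to -0.52, and 1 was called. Of 18 genes known as p53 targets, tested here in a line without functional p53, 4 rose and 1 fell, against 12.1% and 7.69% of all genes. With the file names 2 rose and 4 fell, where 3082 and 2814 of all 19718 genes did. By labels the 4 raised genes included GDF15 and CDKN1A, and TP53I3 fell by 1.46. The count of 4 was 2 without L+G replicate 1 or without DMSO replicate 1, and 2 genes were lowered without L+G replicate 1.

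The kinases GAK and EGFR were not called at the 2-fold threshold. GAK, the cyclin G-associated kinase at the center of the study, lay at 0.58 and 0.85 with L+G and at 0.66 and 0.44 with DMSO. Its change was 0.17 (95% interval -0.23 to 0.56, adjusted p = 0.467 from limma), and the groups overlapped. EGFR lay at -1.09 and -1.57 with L+G and at -0.43 on both DMSO arrays, a change of -0.91 (95% interval -1.40 to -0.41, adjusted p = 0.0136 from limma) that was less than 2-fold. Its adjusted p was between 0.0618 and 0.0727 without L+G replicate 2 or either DMSO array, and with the file names EGFR gave 0.58 (adjusted p = 0.0493 from limma). Of 13 receptors, ligands and regulators of the EGF family, ERRFI1, a feedback inhibitor of the receptor, rose 3.02-fold, and the ligand HBEGF 2.17-fold, while EGF and ERBB4, which were well above background on neither L+G array, were at least 1.93-fold and 1.33-fold lower. Under normexp background correction, EGF and ERBB4 gave 0.23 each, and of these 2 lowered genes 0 were called without DMSO replicate 1 and 1 without DMSO replicate 2. Of the 2 raised genes 1 was called without L+G replicate 1 or either DMSO array. Of 17 genes downstream of ERK, 2 fell, the feedback inhibitor SPRED1 (-1.51) and the ETS factor ETV4 (-1.18), and 4 fell without L+G replicate 1 or with the file names. Of all genes 7.69% fell by labels, and 2814 of 19718 fell with the file names.

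Among 16 tested genes of the TGF-beta family, 5 rose and 4 fell, against 12.1% and 7.69% of all genes. Beside LEFTY1 and GDF15, BAMBI, a decoy receptor, rose 4.06-fold and INHBA, which encodes the activin A subunit, 3.28-fold. INHBB, the subunit of activin B, fell 3.56-fold, from 5.23 and 5.65 with DMSO to 3.53 and 3.69 with L+G. INHBA and INHBB moved in opposite directions on both slides. GREM1, an antagonist of bone morphogenetic proteins, was above background on neither L+G array and at least 2.02-fold lower, and under normexp background correction it was not called (-0.11) and 1 gene of the family was lowered. LEFTY2 and NODAL were well above background on none of the 10 arrays.

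Genes of the extracellular matrix and its proteolysis fell in 5 and rose in 4 of 19 cases, against 7.69% and 12.1% of all genes. PLAT, the tissue plasminogen activator, fell 5.38-fold, by 2.92 on slide 1 and by 1.93 on slide 2 on the log2 scale. LOXL4, a lysyl oxidase that crosslinks collagen, fell 6.74-fold. The 4 raised genes were 1 in number without DMSO replicate 1, 2 without DMSO replicate 2 or L+G replicate 2, and 1 under normexp correction or quantile normalization. Lowered were 3 under normexp correction and 0 under the file names. Of the mesenchymal and epithelial genes, the repressor SNAI1 rose 5.01-fold and CDH1, the cadherin it is known to repress, 2.55-fold. Of 10 tested genes of the aryl hydrocarbon receptor and its targets, 2 fell, against 7.69% of all genes, and 0 rose (median 0.05). Both L+G arrays lay above both DMSO arrays for 4 of the 10 and below them for 3, against 45.4% and 29.9% of all genes. The 2 that fell were CYP1B1, by 4.01-fold, and CYP1A1. CYP1A1 was above background on neither L+G array and at least 2.29-fold lower, but gave 0.0092 under normexp background correction. Neither of these genes was called without DMSO replicate 2 or with the file names.

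Most genes of large cellular machines did not pass the 2-fold threshold. For 41 ribosomal protein genes the median was 0.73 and all 41 lay above both DMSO arrays, as did 45.4% of all genes. Of these 2 passed the 2-fold threshold, 19 without L+G replicate 1, 0 without L+G replicate 2, 1 without DMSO replicate 1, 19 with the file names and 0 under quantile normalization, where the median was 0.03. Oxidative phosphorylation (0 of 40 called, median 0.27), tRNA synthetases (0 of 19, -0.08), the proteasome (1 of 31, -0.12) and cytosolic heat shock genes (1 of 13, -0.12) had medians near that of all genes. Without L+G replicate 1 the called genes were 7 raised of oxidative phosphorylation and 3 lowered heat shock genes, with the file names 6 of oxidative phosphorylation were raised, and the proteasome gene was not called without L+G replicate 2 or either DMSO array. Of 20 NRF2 targets 1 was raised, ABCC2, against 4 without L+G replicate 1 and 3 with the file names. HMOX1, the heme oxygenase, lay at 2.17 and 5.47 with L+G and at 0.49 and 1.38 with DMSO. Its change of 2.88 on the log2 scale was more than 2-fold. With the L+G arrays far apart, it was not called, since its adjusted p was not under 0.05 (adjusted p = 0.0531 from limma).

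Interferon-stimulated genes moved apart on the slides. Of 19 tested, 3 rose and 1 fell, against 12.1% and 7.69% of all genes. With the file names 2 rose and 4 fell, where 3082 and 2814 of all 19718 genes did. By labels 13 were higher with L+G on slide 1 and lower on slide 2, against 1818 of 19714 genes in all. The median was 0.79 on slide 1 and -0.98 on slide 2. IFI6 rose on both slides (1.30 and 1.71), while IFI44 gave -0.26 and -1.89. The mean over the slides of this list (median 0.01) therefore covers opposite values on the single pairs of arrays. Without L+G replicate 1, 5 of these genes were lowered, and without DMSO replicate 1, 1 was raised. A list of metallothioneins and the zinc exporter SLC30A1 also moved apart, with 7 of 9 genes lower on slide 1 and higher on slide 2. Of all 19714 genes 3574 moved in opposite directions on the slides, 1818 of them higher on slide 1.

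**Figure D3:**
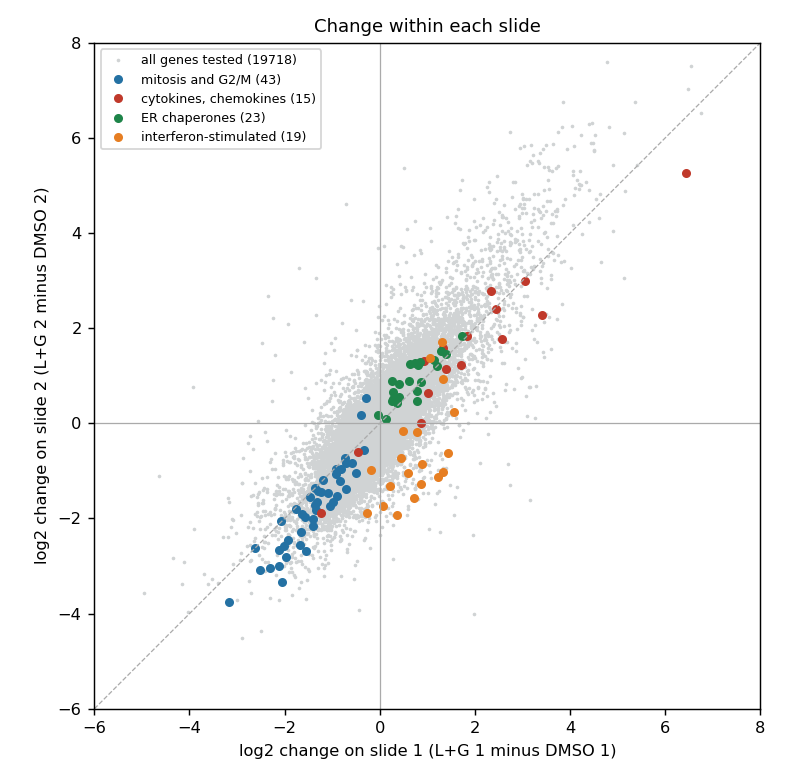
Log2 change on slide 1 (L+G 1 minus DMSO 1, x axis) against that on slide 2 (L+G 2 minus DMSO 2, y axis); each point is a gene, 4 lists are colored, and the dashed line marks equal change. Mitosis genes lie in the lower left and cytokine genes mostly in the upper right, while 13 of 19 interferon-stimulated genes lie in the lower right.

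The L+G arrays were also compared with the arrays of either single drug by label, in the same model of all 10 arrays, as differences that do not use the DMSO levels. By the file names, the Luteolin arrays are those of gefitinib and the Gefitinib arrays those of both drugs, so that the differences against the Luteolin arrays would compare single drugs and those against the Gefitinib arrays would change sign as combination minus luteolin. Against the Luteolin arrays, 2222 genes were higher on the L+G arrays (11.3%) and 1923 lower (9.75%). Of the 45 DNA replication genes, 31 were higher and 0 lower with L+G (median 1.40). RRM2 lay at 1.25 and 0.56 with L+G and at -2.26 and -2.61 with Luteolin, a difference of 3.35 (adjusted p = 0.000179 from limma). Of the cytokine genes 8 of 15 were higher than with Luteolin, as were 17 of 26 glycolysis and hypoxia genes and 13 of 17 recombination genes, and 7 of 17 ATF4 effectors were lower. DDIT3 was lower than with Luteolin by 3.09 and TRIB3 by 2.77 on the log2 scale.

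Against the Gefitinib arrays, 3394 genes were higher with L+G (17.2%) and 1924 lower (9.76%). Of the 43 mitosis genes, 16 were lower and 3 higher (median -0.80), and of 17 immediate early genes 7 were lower and 3 higher. ARC lay at -2.62 and -2.72 with L+G and at 1.17 and 0.29 with Gefitinib, a difference of -3.40 (adjusted p = 0.000183 from limma). GDF15 was higher by 2.55 than with Gefitinib (adjusted p = 0.000631 from limma), and its level with L+G differed from that with Luteolin by -0.19 (adjusted p = 0.664). CCL20 and CXCL8 differed from Gefitinib by 0.19 and -0.39 (adjusted p = 0.79 and 0.43 from limma). CXCL8 was 2.18 higher than with Luteolin, and CCL20, above background on neither Luteolin array, at least 11.6-fold higher. LEFTY1 was higher with L+G than with either drug, by 3.90 over Luteolin (adjusted p = 0.00161) and 3.00 over Gefitinib (adjusted p = 0.00295). EGFR was lower with L+G than with either, by -1.19 against Luteolin (adjusted p = 0.0042) and by -1.49 against Gefitinib (adjusted p = 0.000959 from limma). Both directions turn against luteolin if the file names hold, LEFTY1 being lower by the same amount and EGFR higher (1.49) in the combination, and the differences from gefitinib are 0.90 (adjusted p = 0.188) and 0.30 (adjusted p = 0.262 from limma).

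**Figure D4:**
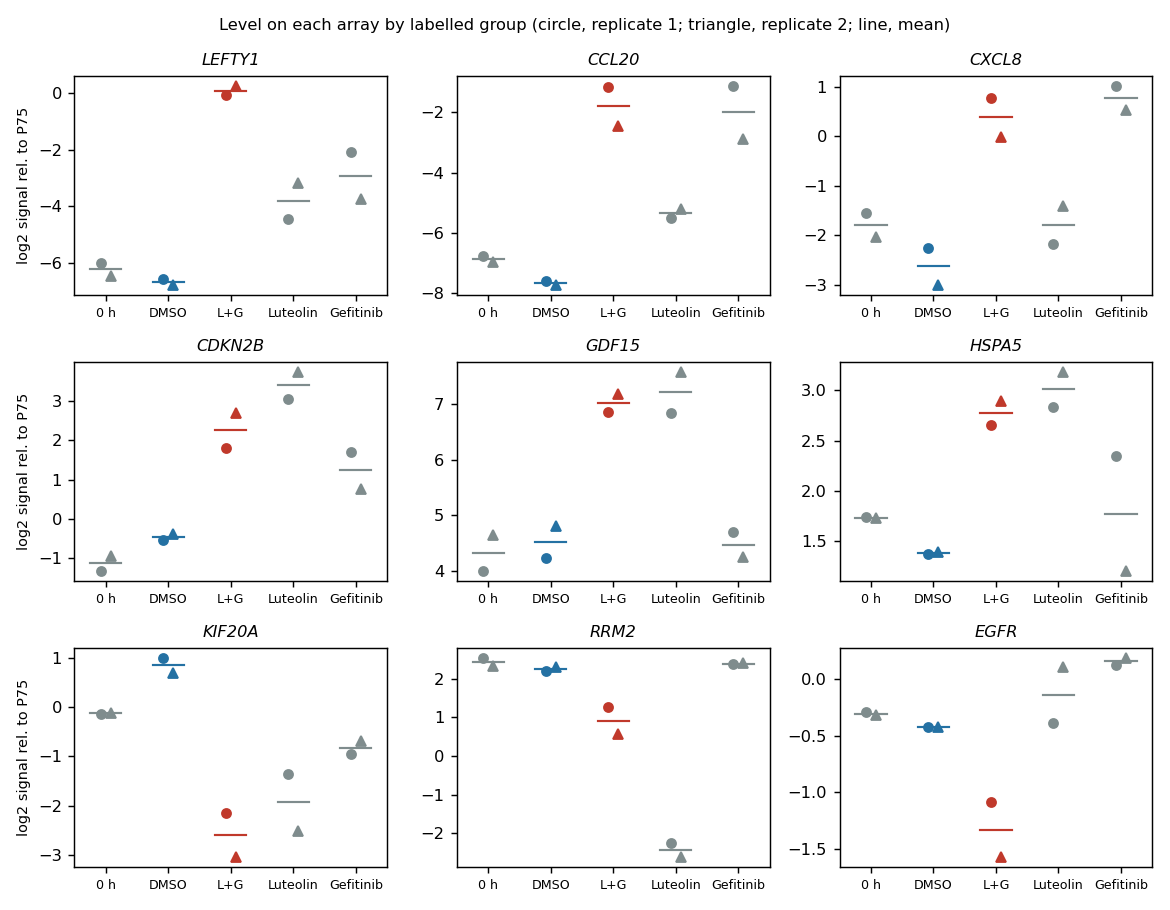
Signal on the log2 scale, with the 75th percentile of each array at 0 (y axis, own scale for each gene), of 9 genes on each array of the 5 labelled groups; circles are replicate 1, triangles replicate 2, lines group means, red L+G and blue DMSO. The L+G level of CXCL8 (0.79 and -0.01) is near that of the Gefitinib arrays, that of GDF15 (6.86 and 7.18) near the Luteolin arrays, and LEFTY1 and EGFR lie outside both.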

How the data were processed

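Total RNA of PC-3 cells had been hybridized to Agilent 4x44K arrays. The authors deposited scanner files of Agilent Feature Extraction, version 10.7.3.1 per the file headers, whose processed intensity is background-subtracted and detrended within the array and not normalized between arrays. The table of values held the same intensity, and 0 columns of samples were left unused. Control and outlier spots were left out (R 4.3.3 with limma 3.58.1, and data.table in version 1.17.8), log2 intensities were set relative to the array's 75th percentile, and spots of a probe were averaged. Kept were 28776 of 41000 probes, those well above background (in at least 50% of their spots) on both arrays of at least 1 group. The brightest probe stood for each of 19718 genes. Probe accessions were matched to a RefSeq table (23958 probes), and the other probes kept the name in the file. A limma model of the 5 groups was fitted to all 10 arrays (5 residual and 3.36 prior degrees of freedom), with Benjamini-Hochberg adjustment over all probes kept. Genes called raised or lowered had an adjusted p under 0.05 and changed 2-fold or more. The step was tested on simulated data. Depth here means signal above background, and having 2 arrays per group limits the precision.

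The comparison and the gene lists were chosen with earlier results of these data known. Genes named are the 12 with the largest rise and fall among RefSeq-named genes above background on all 4 arrays with groups that did not overlap, 6 of each kind detected in 1 group only, up to 4 called members of each list and direction, and GAK, EGFR, LEFTY1, LEFTY2 and NODAL. PLK1, CCNB1, CDK1, AURKB, FOXM1, BIRC5, MCM3, MCM5, NFKBIA, ATF4, DDIT3, TRIB3, EGR1 and HMOX1 were chosen after their values were seen. Some genes that the rule takes in are not reported here. Promoters are the sequences of RefSeq on GRCh38.p14. Alternatives were normexp correction (offset of 50), quantile normalization, array median scaling (chosen after seeing the data), no filter, a filter asking for signal on all 10 arrays, the table of values, a block for replicate or for slide, a fit of the compared groups alone, the file names, a 4-fold minimum or none, each gene's median signal over its probes on an array, the methods' t-test and leaving out each array.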

Additional observations from a re-analysis of the deposited data

How the results depend on the processing

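Counts are given as genes raised and lowered, for L+G against DMSO, then against Luteolin, then against Gefitinib, and the counts by labels were 2386 and 1517, 2222 and 1923, and 3394 and 1924. Under normexp background correction the counts that moved by over 1.5 times were 749 lowered against DMSO, 1006 lowered against Luteolin, and 1810 raised and 1135 lowered against Gefitinib. With the file names, the lowered counts became 2814, 3394 and 3574. With no minimum fold they were 4943 and 3204, 4636 and 3609, and 4510 lowered against Gefitinib. With a 4-fold minimum they were 585 and 192, 490 and 291, and 1079 and 129. The methods' t-test gave 609 and 360, 553 and 505, and 1402 and 589 without adjustment, and after Benjamini-Hochberg adjustment 0 and 0, 0 and 1, and 1 and 0. By limma 10279 genes had an unadjusted p under 0.05 against DMSO. The fold settings move the counts by construction, and the cause of the other moves was not tested. Leaving out each array in turn gave 1522 to 3246 raised and 1087 to 2174 lowered against DMSO, 1573 to 3017 and 1530 to 2477 against Luteolin, and 3040 to 3593 and 1876 to 2208 against Gefitinib, with the spread of a lone array assumed to equal that of the remaining groups.

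No direction of the 143 genes tested by name turned under quantile normalization, array median scaling, no filter, the filter on all 10 arrays (115 of the genes), the blocks, the groups in the fit or leaving out an array. Normexp correction turned CYP1A1 (0.0092), EGF (0.23) and ERBB4 (0.23), and the median signal over probes turned BBC3 (-0.062) and AAK1 (-0.70). With the file names 24 turned. They were, of the raised, GDF15 (-0.049), SLC2A1 (-0.34), TP53INP1 (-1.46), ABCA1 (-0.60), TXNIP (-1.68), FOXO3 (-0.31), DNAJB9 (-0.26), XBP1 (-0.37), SLC7A5 (-0.021) and LATS2 (-0.77), and of the lowered FAM107A (0.13), NAV3 (0.037), PLAT (0.16), LOXL3 (0.053), PRIM1 (0.024), RRM2 (0.14), CYP1A1 (0.0076), RAD51AP1 (0.058), HSPA4L (0.33), CFLAR (0.048), KDR (0.45), GLA (0.14) and DKC1 (0.064), and EGFR (0.58), which was not called. With the replicate block 2413 genes were raised and 1544 lowered against DMSO, and with slide as a block 2460 and 1541, each ending the call of 1 named gene. The shared replicate number was not taken as pairing, since the deviations of replicates 1 and 2 correlated at 0.10 between L+G and DMSO and at -0.10 to 0.29 between other groups, across probes.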
